A study of Mus musculus with 2 samples.

Results

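The genes of the integrated stress response and of the unfolded protein response were compared in the gastrocnemius, a calf muscle, between PGC-1β(i)skm-/- mice, here called mutant, and their controls. A list of 43 gene symbols defined the set, which was matched to the annotation of the array. Of these, 42 were measured, out of 19936 named nuclear genes, and Pycr1, a proline synthesis enzyme, had no probe set listed under its symbol alone and was not analysed here. Male mice on a C57BL/6 background carried floxed alleles of PGC-1β, a transcriptional coactivator of mitochondrial genes, in both groups, and both were injected with tamoxifen, 1 mg daily over 5 days, starting at 7 weeks of age. The PGC-1β(i)skm-/- mice also carried HSA-Cre-ERT2, a tamoxifen-dependent recombinase that the human skeletal actin promoter drives in myofibres, whereas their control littermates, which the sample labels call wild-type, did not. The muscle was taken at 8 weeks. RNA of 3 mice was pooled for each of the 2 arrays, so that there was 1 array per genotype, no value has an error from replicates, and no test was made. The effect of the transgene and that of the deletion cannot be told apart in these groups.

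The integrated stress response begins with kinases that phosphorylate the translation initiation factor eIF2 when amino acids or heme are short, when double-stranded RNA is present or when proteins misfold in the endoplasmic reticulum (ER). General protein synthesis then slows while the transcription factor ATF4 is translated, and ATF4 turns on genes for amino acid uptake, serine and one-carbon synthesis and redox balance. The unfolded protein response uses PERK, among these kinases, together with the ER membrane sensors IRE1 and ATF6, which raise ER chaperones through XBP1 and cleaved ATF6. In skeletal muscle, defects of the mitochondrial respiratory chain are known to switch on ATF4 targets, and the muscle may then secrete the hormones FGF21 and GDF15.

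Most of these genes had nearly the same signal on both arrays, while Nupr1, Ddit3 and Aldh18a1 were higher on the mutant array by a ratio of 1.2 or more. Of the 42 genes, 3 (7.14%) reached a mutant over control ratio of 1.2, the threshold of the study's methods, against 1.64% of all named genes. At the lower threshold of 0.8 there were 0 members, where 0.652% of all genes lay, and at 1/1.2 there were also 0, where 1.69% of all genes lay. A log2 difference above 0 was found for 28 of 42 genes (66.7%), against 49.6% of all genes. The members were chosen with earlier results of these data known. A share that differs from that of all genes may therefore come from this choice, which was not tested. The median log2 difference was 0.03 for the members and -0.00055 for all genes, and the middle part of the members, between the 25th and 75th percentiles, spanned -0.01 to 0.07, against -0.07 to 0.07 for all genes. Of the members, 21 of 42 lay within 0.05 of 0 on the log2 scale, and 38.6% of all genes did. In RNA of whole muscle, more cells of a type and more RNA per cell cannot be told apart.

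The 3 higher genes had mean signals in the third of 4 equal groups of genes by signal, between 6.46 and 8.07 on the log2 scale. That group held 16 of the members, and 1.63% of its 4984 genes had a ratio of 1.2 or more. Genes with more than 1 probe set on the array give a view of the spread within an array pair. Over 731 such genes, the log2 differences of the 2 brightest probe sets lay apart by a median of 0.05, with a 95th percentile of 0.25. The 3 higher genes have 1 named probe set each, so that no such gap can be given for them. A gap of this kind comes from the same 2 RNA pools and holds no variation between mice. It is not an error of the difference between genotypes.

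Most markers of connective tissue, macrophages and endothelium were also higher on the mutant array. Over all named genes, 49.6% were above 0 and 1.64% had a ratio of 1.2 or more. Each of 13 connective tissue markers was above 0, with 4 at a ratio of 1.2 or more (Comp, Fmod, Tnmd and Thbs4), and their signals, in linear units, summed to 14558 in control and 16517 in mutant muscle, a ratio of 1.13. Of 14 macrophage markers, 12 were above 0 and 5 had a ratio of 1.2 or more (C1qa, C1qb, Mrc1, C1qc and Csf1r), with sums of 1801 and 2115, a ratio of 1.17, and Aif1 was the only dim one of them. Dim here means at or under 5.45, the 95th percentile of the mean log2 signal of 1027 olfactory receptor genes. Of 10 endothelial markers, 8 were above 0 and 2 below, none had a ratio of 1.2 or more, and the ratio of sums was 1.05. Of 10 myofibre markers, also 8 were above 0, with a ratio of sums of 1.01. The part of these cells in the higher signal of Nupr1, Ddit3 and Aldh18a1 was not tested.

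**Figure D1:**
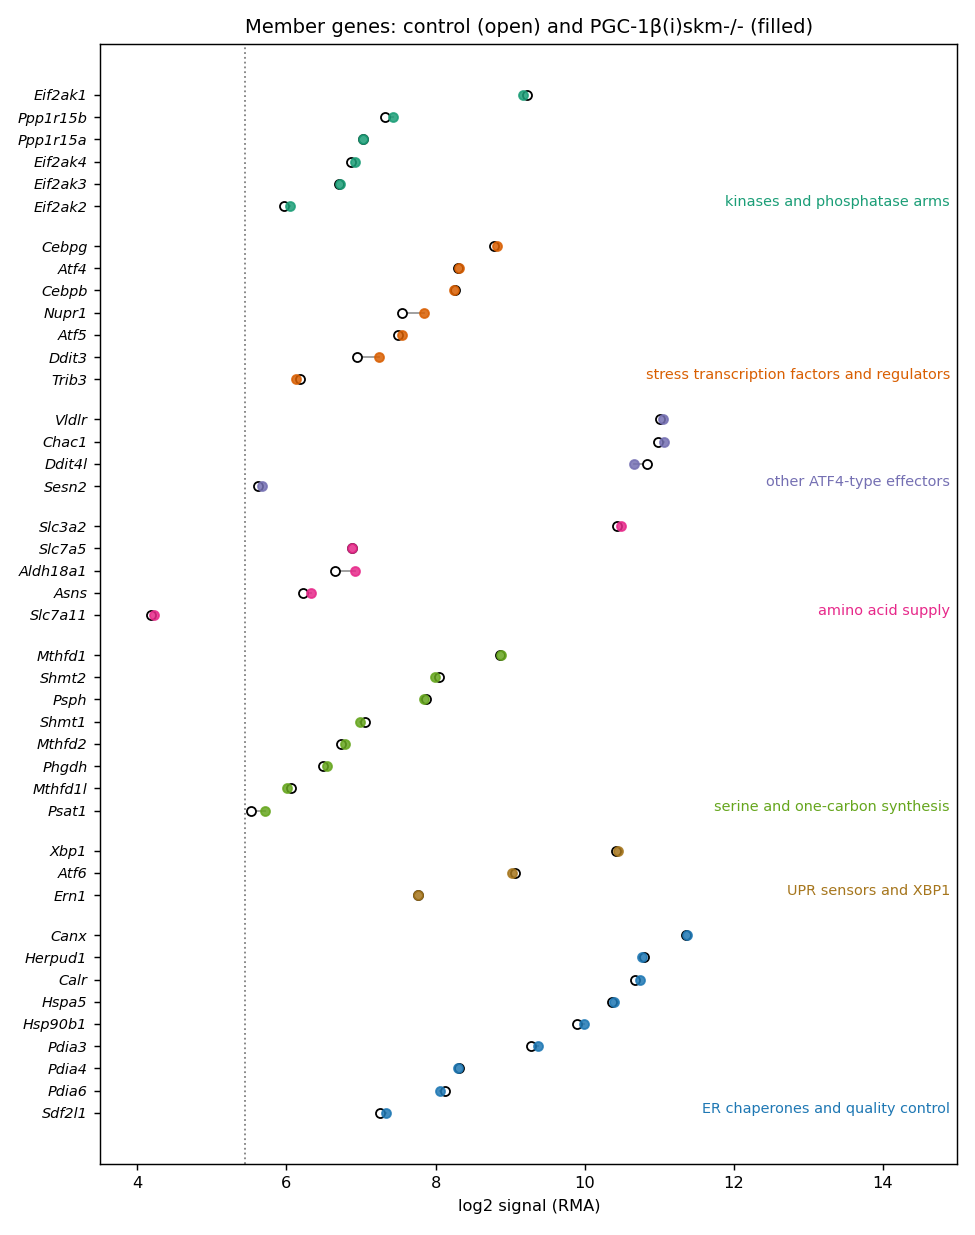
Each row is 1 measured member gene, with its log2 signal (horizontal axis) on the control array (open circle) and on the mutant array (filled circle, coloured by branch), and the dotted line marks 5.45, under which 95% of olfactory receptor genes lie. The pairs of circles overlap for most genes and lie visibly apart for Nupr1, Ddit3, Aldh18a1, Psat1 and Ddit4l.

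The arrays were checked first by the targeted gene. Ppargc1b, encoding PGC-1β, had log2 signals of 7.87 in control and 7.06 in mutant muscle, the lowest difference of all 19936 genes. The probe set is not limited to the deleted exon, so that this is a partial check. The 10 myofibre markers had mean log2 signals of 12.8 to 13.9, and of 7 markers of other tissues 5 were dim (Alb, Ins2, Gfap, Umod and Sftpc) and Apoa1 and Myh6 were not. Among the members, Slc7a11 alone was dim.

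Sequence elements known from these pathways were searched in the RefSeq promoters of the members (GRCm38.p6, 250 bases before to 50 after each annotated start), and the matches are shown because they tell which members carry the letters of each arm. The members were listed as genes of the pathways from which these elements are known. A share above that of all promoters therefore follows from this choice and is not a result of these data. The ER stress response element was searched as CCAAT and CCACG with 9 bases between them, on both strands. It was found in 5 of 44 promoters of 40 members (11.4%) and in 39 of 32851 promoters in all (0.119%), and each of the 5 belongs to an ER chaperone or a protein disulfide isomerase, with a pair of matches in Hsp90b1. The sequences read 5′ to 3′ on the strand of the gene, with the element in capitals, which reads CGTGG first where it lies on the other strand.
Hspa5, chr2:34772005-34772063, plus strand, 65 bases before the start: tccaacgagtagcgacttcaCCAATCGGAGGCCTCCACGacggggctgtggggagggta
Hsp90b1, chr10:86705513-86705571, minus strand, 107 bases before the start: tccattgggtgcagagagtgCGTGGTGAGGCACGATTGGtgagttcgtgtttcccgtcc
Hsp90b1, chr10:86705618-86705676, minus strand, 212 bases before the start: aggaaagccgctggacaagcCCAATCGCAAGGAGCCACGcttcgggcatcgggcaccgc
Calr, chr8:84847055-84847113, minus strand, 162 bases before the start: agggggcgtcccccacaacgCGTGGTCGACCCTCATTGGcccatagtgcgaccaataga
Canx, chr11:50325780-50325838, minus strand, 145 bases before the start: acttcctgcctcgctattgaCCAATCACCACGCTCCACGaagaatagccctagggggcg
Pdia6, chr12:17266471-17266529, plus strand, 98 bases before the start: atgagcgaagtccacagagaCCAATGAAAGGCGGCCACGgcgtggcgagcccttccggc

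The C/EBP-ATF response element, the kind of site that ATF4 is known to bind with C/EBP partners, was searched as TGATGNAA on both strands. It was found in 8 of 44 promoters of the members (18.2%) and in 3.97% of all promoters, with the same limit from the choice of members. The 8 genes were Nupr1, Asns, Chac1, Vldlr, Herpud1, Slc7a11, Trib3 and Pycr1, and Slc7a11 held a pair of matches. The match of Trib3 began 15 bases after the annotated start. The capitals mark the element, which is printed as its reverse complement where it lies on the other strand.
Nupr1, chr7:126625553-126625600, minus strand, 110 bases before the start: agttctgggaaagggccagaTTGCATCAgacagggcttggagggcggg
Asns, chr6:7693210-7693252, minus strand, 23 bases before the start: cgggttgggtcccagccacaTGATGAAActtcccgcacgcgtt
Chac1, chr2:119351029-119351076, plus strand, 193 bases before the start: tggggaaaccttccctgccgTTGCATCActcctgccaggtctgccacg
Vldlr, chr19:27216800-27216847, plus strand, 200 bases before the start: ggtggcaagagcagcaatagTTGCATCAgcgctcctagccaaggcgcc
Herpud1, chr8:94386297-94386344, plus strand, 112 bases before the start: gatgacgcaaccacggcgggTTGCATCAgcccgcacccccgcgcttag
Slc7a11, chr3:50443652-50443699, minus strand, 66 bases before the start: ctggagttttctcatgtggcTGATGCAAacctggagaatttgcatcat

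The cyclic AMP response element, TGACGTCA, was found in 1 promoter of the members, that of Ppp1r15a, 12 bases before the start, and in 1.79% of all promoters. Ddit3 and Aldh18a1, with a ratio of 1.2 or more, held none of the 3 elements in this window. Atf6, Ppp1r15b and Slc7a5 had no promoter in the table used.

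Of the kinases that start the response, none differed between the arrays by more than 0.08 on the log2 scale. Eif2ak1, encoding the heme-regulated kinase HRI, had log2 signals of 9.23 in control and 9.17 in mutant muscle. Eif2ak2, encoding PKR, which senses double-stranded RNA, had 5.97 and 6.05. The ER kinase PERK is encoded by Eif2ak3, with log2 signals of 6.70 and 6.72, and the amino acid sensor GCN2 by Eif2ak4, with 6.86 and 6.92. The eIF2 phosphatase has an inducible regulatory subunit, encoded by Ppp1r15a, which was the member nearest to 0, with 7.02 on both arrays. Its constitutive counterpart Ppp1r15b had log2 signals of 7.32 and 7.42, and a second, dimmer probe set of the same gene had 6.25 and 6.20, so that the direction for Ppp1r15b differed between probe sets. The 6 genes of this branch had a median log2 difference of 0.04, with 4 above 0, where 49.6% of all named genes lay.

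Among the transcription factors and regulators, the pattern was uneven. Atf4, the central factor of the response, had log2 signals of 8.31 on both arrays, a difference of 0.01, and Cebpb, encoding a C/EBP partner, had 8.26 and 8.25. Atf5, encoding a factor related to ATF4, and Cebpg, another C/EBP partner, had log2 differences of 0.06 and 0.04. These 4 genes thus lay within 0.1 of 0. ATF4 is known to be regulated largely at translation, which arrays do not measure.

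Nupr1, encoding a small stress-induced nuclear protein, had a log2 signal of 7.55 in control and 7.85 in mutant muscle, 23.1% higher in the mutant, and ranked 200 from the highest among all 19936 differences. Ddit3, encoding the pro-apoptotic factor CHOP, had 6.95 and 7.24, 22.6% higher, at rank 216. Both are known targets of ATF4. Trib3, encoding a pseudokinase that CHOP and ATF4 induce and that restrains ATF4, had 6.18 and 6.12, a log2 difference of -0.06 opposite in sign to the other 2. The branch held 2 of the 3 members with a ratio of 1.2 or more, and its median over 7 genes was 0.04.

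**Figure D2:**
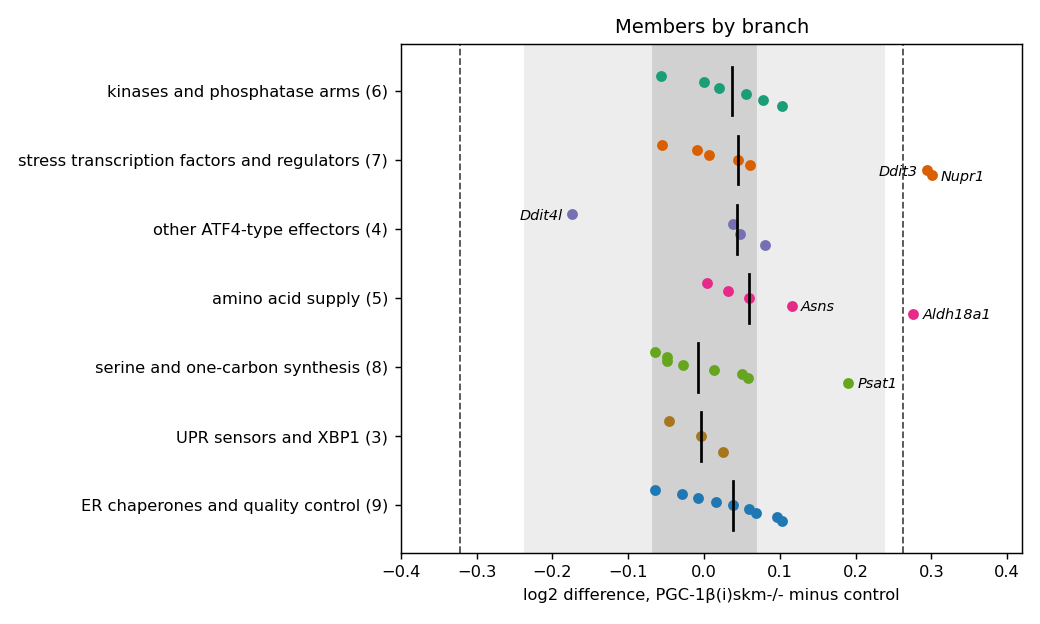
Member genes are drawn as points by branch (rows, with gene numbers) at their mutant minus control log2 difference (horizontal axis), black bars are branch medians, and the ratios 0.8 and 1.2 are dashed lines. The dark and light grey bands hold the middle 50% and 95% of all named nuclear genes, and Ddit3, Nupr1 and Aldh18a1 lie to the right of the upper dashed line.

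The genes of amino acid supply were the branch in which each measured member had a positive log2 difference, 5 of 5, with a median of 0.06. Of all named genes, 49.6% were above 0. Among the 5, Slc7a5 was above 0 by 0.0039 only, and its sign changed with the processing. Aldh18a1, encoding the enzyme that makes the first intermediate of proline synthesis from glutamate, had log2 signals of 6.65 in control and 6.93 in mutant muscle, 21.1% higher and at rank 282 from the highest. Asns, encoding asparagine synthetase, one of the classical ATF4 targets, had 6.22 and 6.33, 8.34% higher, which did not reach a ratio of 1.2. The amino acid transporter genes were close to equal. Slc3a2 and Slc7a5, encoding the heavy and light chain of the large neutral amino acid transporter, had log2 differences of 0.06 and 0.0039, and Slc7a11, encoding the cystine transporter, had 4.19 and 4.22, in the range of the olfactory receptor genes.

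In the serine and one-carbon branch, 4 of 8 genes were above 0 and 4 below, with a median of -0.0074. Psat1, encoding the second enzyme of serine synthesis, had log2 signals of 5.53 and 5.72, 14.1% higher on the mutant array and close to the dim range. The enzymes before and after it in the same pathway did not share this value, with log2 differences of 0.06 for Phgdh and -0.03 for Psph. Mthfd2, encoding the mitochondrial folate enzyme that is among the ATF4 targets most often raised when the respiratory chain fails, had 6.73 and 6.78, a difference of 0.05. Its mitochondrial neighbours Shmt2 and Mthfd1l each had -0.05, and of the cytosolic enzymes of the same steps Shmt1 had -0.06 and Mthfd1 0.01. No gene of this branch passed either ratio.

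Of the remaining ATF4-type effectors, Ddit4l had the lowest difference of all members. Ddit4l, encoding an inhibitor of mTORC1 signalling that is abundant in muscle, had log2 signals of 10.84 in control and 10.67 in mutant muscle, a ratio of 0.886 at rank 1170 from the lowest. Chac1, which degrades glutathione, had 10.99 and 11.07, and Vldlr, encoding a lipoprotein receptor, had 11.01 and 11.05. Sesn2, encoding a stress-induced sensor of leucine, had 5.62 and 5.67. These last 3 lay above 0, by 0.04 to 0.08.

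The ER arm here held Atf6, Ern1, Xbp1 and 9 ER chaperone and quality control genes, and none of them passed either ratio. Eif2ak3, encoding the ER kinase PERK, and Ddit3, an ATF4 target downstream of PERK, were counted with the integrated stress response. Of the latter genes, Ddit3 had a ratio of 1.23. Of the UPR sensors, Atf6 had log2 signals of 9.07 and 9.02 and Ern1, encoding IRE1, had 7.76 on both arrays. Xbp1, whose RNA IRE1 splices, had 10.42 and 10.44, and the probe set does not separate the spliced form. The 9 ER chaperones and quality control genes had a median log2 difference of 0.04, a range of -0.07 to 0.10 and 6 above 0. Of all named genes, 49.6% were above 0. Hspa5, encoding BiP, the main ER chaperone of the HSP70 family, had 10.36 and 10.40. Hsp90b1, encoding GRP94, had 9.89 and 9.99, 6.90% higher, and Pdia3, encoding a disulfide isomerase that works with calnexin and calreticulin, had 9.27 and 9.38, 7.43% higher. Calr and Canx, encoding these 2 lectin chaperones, had log2 differences of 0.06 and 0.02.

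Pdia6, another disulfide isomerase, had the lowest difference of the ER arm, with log2 signals of 8.13 and 8.07. Herpud1, of ER-associated degradation, had a log2 difference of -0.03 and Sdf2l1, a partner of ER chaperones, of 0.07. Pdia4 had -0.01 with the probe set of higher signal, at 8.31 and 8.30, and 0.24 with a second one at 3.97 and 4.21, which lies in the dim range. Over the 12 genes of the ER arm the median log2 difference was 0.02 and none had a ratio of 1.2 or more. Over the 30 genes of the integrated stress response the median was 0.04, and 3 genes (10%) had such a ratio, against 1.64% of all named genes. At a share of 1.64%, a list of 12 genes need not hold any. The ER arm was brighter, with a median control log2 signal of 9.58 against 7.04. In the brightest of the 4 groups of genes by signal, 0.582% had such a ratio. The difference between the arms was not tested.

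**Figure D3:**
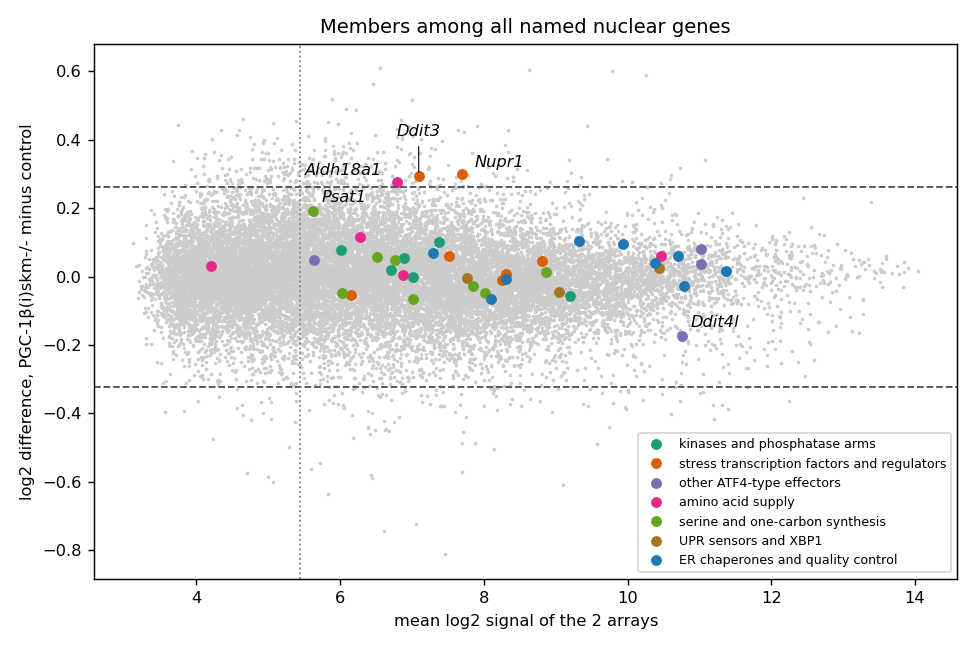
Named nuclear genes are plotted as points, with the mean of both log2 signals on the horizontal axis and the mutant minus control log2 difference on the vertical axis, with members coloured by branch and all other genes in grey. Dashed lines mark ratios of 0.8 and 1.2 and the dotted line the dim signal of 5.45, and the members lie within the grey cloud, with Nupr1, Ddit3 and Aldh18a1 above the upper dashed line.

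Set beside the promoter letters, the 5 members with an ER stress response element, Hspa5, Hsp90b1, Calr, Canx and Pdia6, had a median log2 difference of 0.04 and a range of -0.07 to 0.10, with 4 above 0. The 16 other measured genes with this element had a median of -0.01, with 8 above 0. The 7 measured members with a C/EBP-ATF response element had a median of 0.04 and a range of -0.06 to 0.30, with 5 above 0 and Nupr1 as the only one with a ratio of 1.2 or more. Over the 558 other measured genes with this element the median was 0.01 and 53.2% were above 0, against 49.6% of all named genes. Of these 558, 8 had a ratio of 1.2 or more and 3 of 0.8 or less. Of all named genes, 1.64% and 0.652% did. For both elements, genes that carry it thus lay on both sides of 0.

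**Figure D4:**
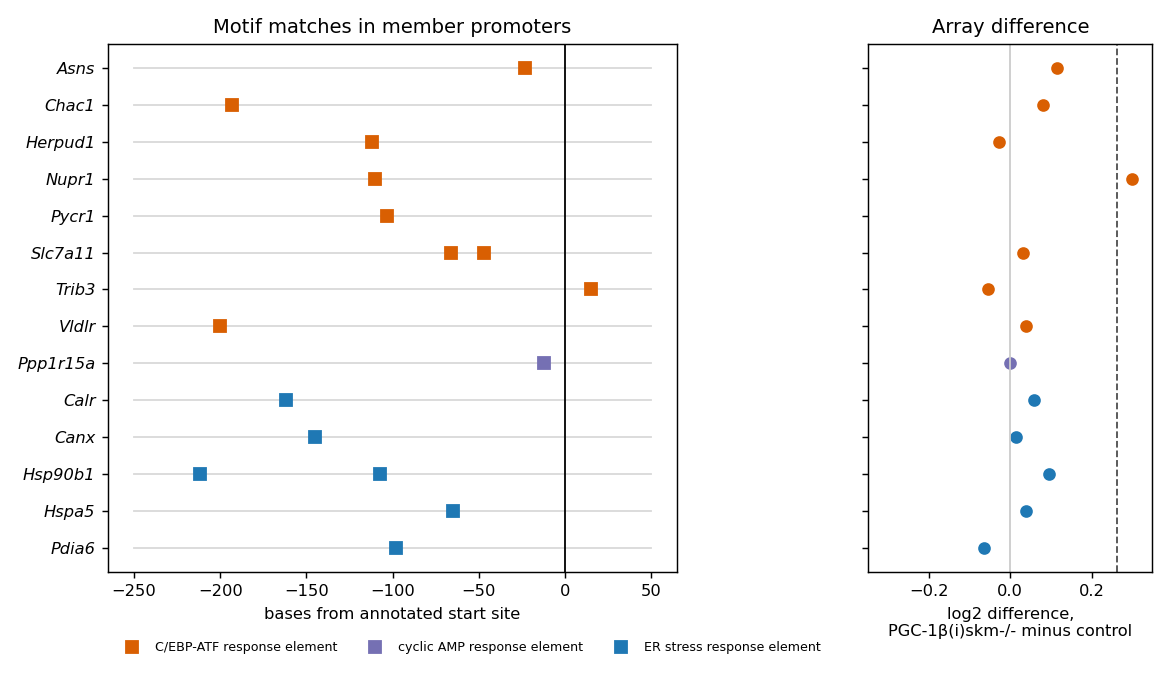
The left panel places each match of the 3 elements in the member promoters at its distance in bases from the annotated start (horizontal axis; negative is before the start) and the right panel gives the log2 difference, mutant minus control, of the same gene, with the dashed line at a ratio of 1.2. Pycr1 was not analysed on the arrays, and Nupr1 is the only gene to the right of the dashed line.

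Further genes of the pathway, taken from lists by function, lay on both sides of 0 and included single genes with low ratios. Of 27 measured genes of the integrated stress response outside the members, 14 were above 0, with a median log2 difference of 0.01. Ddit4, encoding REDD1, the paralogue of Ddit4l in the control of mTORC1, had log2 signals of 9.20 and 8.87, a ratio of 0.796, and was the only one of them with a ratio of 0.8 or less. Stc2, encoding a secreted glycoprotein, had 7.30 and 7.02, a ratio of 0.823. None of the 27 had a ratio of 1.2 or more, and the largest positive differences were those of Crebrf (0.15) and Slc1a5 (0.11). Fgf21 had log2 signals of 5.33 and 5.44, in the dim range, and Atf3, encoding a stress-induced factor downstream of ATF4, had 7.02 and 6.94. Gdf15 had no probe set listed under its symbol alone and was not analysed here.

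Genes of the protein synthesis machinery that the response acts on lay on both sides of 0. The 16 measured cytosolic tRNA synthetases, many of them known ATF4 targets, had a median log2 difference of -0.00053, a range of -0.13 to 0.08 and 8 above 0. The lowest were Hars at -0.13 and Lars at -0.09, for histidine and leucine, and the highest Qars at 0.07 and Iars at 0.08, for glutamine and isoleucine. Of the 7 measured subunits of eIF2 and of eIF2B, its nucleotide exchange factor, Eif2b3 had -0.19, Eif2b1 -0.12, Eif2b5 0.08 and Eif2b2 0.14, with no ratio past either threshold. The differences of this list were as wide as those of all genes, with a standard deviation over genes of 0.12 for both, and Eif2b3 lay below each of the members.

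Of 24 further ER folding genes, 13 were above 0 with a median of 0.01. Dnajb11, a co-chaperone of BiP, had log2 signals of 8.04 and 7.83, a ratio of 0.864, and Dnajc3, another co-chaperone, a difference of -0.13, whereas Rpn2, of the glycosylation complex, had 0.12 and Dnajb9, a target of XBP1, 0.10. The 19 genes of ER degradation and translocation had a median of 0.0043, from Ssr4 at -0.11 and Sec24d at -0.10 to Os9 at 0.09 and Selenos at 0.14. Of 8 further sensors and proteases, 5 were above 0, against 49.6% of all named genes, with a median of 0.03. Map3k5, encoding the kinase ASK1 downstream of IRE1, had log2 signals of 7.06 and 7.27, 15.3% higher, and Creb3l2, encoding an ER membrane transcription factor, had a log2 difference of 0.09. The lowest were Traf2, an adaptor of IRE1, at -0.05 and Mbtps1, the protease that first cuts ATF6, at -0.02. No gene of these 3 lists had a ratio past 0.8 or 1.2.

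A further list held mitochondrial chaperones and proteases, together with Dele1 of the relay of mitochondrial stress. It was lower on the mutant array in 13 of 14 genes, with a median log2 difference of -0.15. Among all 19936 named genes, 10011 lay below 0, and the median was -0.00055. The list was chosen with earlier results of these data known, and the part of this choice in its direction was not tested. Afg3l2, a protease of the inner membrane, had log2 signals of 10.18 and 9.84, a ratio of 0.791. It was the only gene of the list under the threshold of 0.8, where 0.652% of all named genes lay. Hspd1 and Hspa9, encoding the chaperones HSP60 and mortalin, had ratios of 0.902 and 0.895, and the protease Htra2 and the ClpXP subunit Clpx had log2 differences of -0.22 and -0.21. Dele1, whose product carries mitochondrial stress to the kinase HRI, had 9.54 and 9.39, while Oma1, the protease that cleaves it, had 8.21 and 8.27, the single gene of this list above 0. The members of the integrated stress response had a median of 0.04 on the same arrays, and no test of the difference between the lists was possible.

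**Figure D5:**
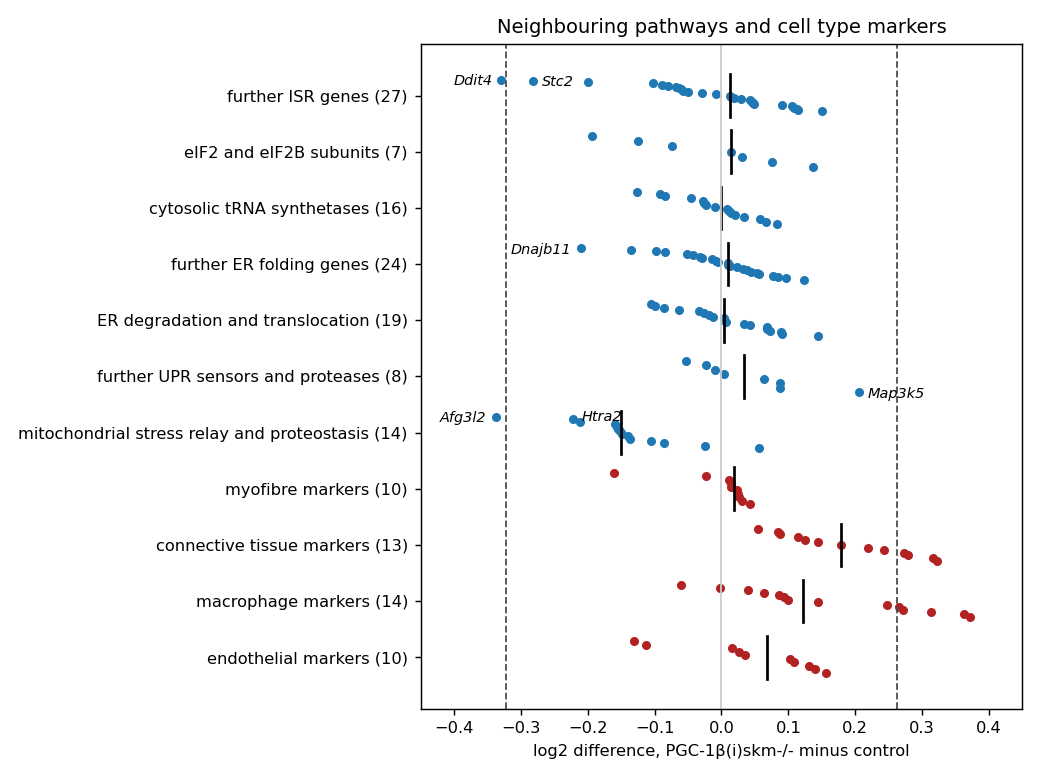
Genes of neighbouring pathways (blue) and cell type markers (red) are drawn as points by list (rows, with gene numbers) at their mutant minus control log2 difference (horizontal axis), black bars are medians, and the ratios 0.8 and 1.2 are dashed lines. The mitochondrial list has a median of -0.15, and the connective tissue and macrophage markers have medians of 0.18 and 0.12.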

How the data were processed

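The authors hybridized cDNA from 150 ng of pooled RNA to Affymetrix Mouse Gene ST arrays and obtained log2 signals per probe set by RMA (background correction, quantile normalization, median polish) in Expression Console; RMA is also what the submitters' notes name. Quantile normalization hides a shift of all genes together, and RMA compresses differences of dim probe sets. The deposited log2 values (35556 per array, medians 6.00 and 6.02) were used as they are. A genome build was not given in the sources used here.

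Symbols of the platform annotation were updated by Entrez ID (21698 of 21789 probe sets with 1 symbol). Left out were 1621 with several symbols and 12146 that had no symbol or were not listed in the annotation. For 997 genes with several probe sets, that with the highest mean log2 signal was taken. Differences of log2 values, ratios, and medians and counts per list were computed without filter or test. The members and lists were chosen with earlier results of these data known. Values were given for members past a ratio of 0.8 or 1.2, the extremes of each branch, sensors and transcription factors, and in further pathway lists for genes past either ratio and the 2 largest differences each way; of the marker lists, genes past either ratio were named; Fgf21, Atf3, Clpx, Hspd1, Hspa9 and Dele1 were added after their values were seen. Alternatives were the mean of probe sets, minimum mean log2 signals of 6 and 7, subtraction of the median or a loess curve, and other thresholds. The number of arrays limits the precision. The calculation was tested on simulated data with added shifts larger than any difference of the members. It was not tested for differences near the thresholds. Python 3.11.15, pandas 2.3.3, numpy 2.4.6, statsmodels 0.14.6 and matplotlib 3.10.9 were used.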

Additional observations from a re-analysis of the deposited data

How the results depend on the processing

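With the mean of probe sets, a filter at a mean log2 signal of 6, subtraction of the median difference or of a loess curve, 3 members had a ratio of 1.2 or more and none of 0.8 or less, and with a filter at 7, which 29 members passed, 2 had such a ratio, since Aldh18a1 was left out. At 1.5-fold, 0 members were higher or lower. The median of the members lay between 0.02 and 0.04, with 17 of 29 members above 0 under the filter at 7, and branch medians moved by at most 0.05 on the log2 scale. Some branch medians turned sign. With the loess curve, that of serine and one-carbon synthesis was 0.01 and that of the UPR sensors 0.0093. With the filter at 7, that of the kinases and phosphatase arms went from 0.04 to -0.00075. Single members moved by at most 0.02 with the loess curve. Slc7a5 was then at -0.0031, so that not every measured gene of amino acid supply lay above 0. With the mean of probe sets, Pdia4 moved to 0.12, by its dim probe set, and no other member moved by more than the standard deviation of the differences over genes, 0.12. Over all genes, the filter at 7 left 65 at a ratio of 0.8 or less and 67 at 1.2 or more, against 130 and 327 without it, of fewer genes (8205 of 19936), and the filter at 6 left 98 and 155. At 1/1.2 in place of 0.8, 336 genes were lower. No paired analysis was possible because each group had 1 array. No array could be left out, since each genotype has 1. The signal of Slc7a11, Fgf21 and Psat1 was near or in the dim range.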
